A study of Caenorhabditis elegans with 2 samples.

Results

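The 10 genes described here encode proteins of the meiotic chromosome axis (*htp-1*, *htp-3*, *him-3*), the synaptonemal complex (*syp-1*, *syp-2*), the crossover RING proteins (*zhp-1*, *zhp-2*, *zhp-3*, *zhp-4*) and the axis remodeller *pch-2*. They were chosen by name, by their roles in meiosis, from the 19985 protein-coding genes of *Caenorhabditis elegans*. Earlier results of these data were known when they were chosen. For each gene, listed regions of LIN-35 ChIP-seq were taken where the summit, the position of highest signal, lay within 1000 bp of the annotated gene start. The pooled candidate list is labelled as holding both peaks and background, so a candidate is not by itself shown to be enriched. LIN-35 was mapped in whole young adults of mixed sex from strain YL402, which carries the *unc-119(ed3)* III mutation and the transgene vrIs56, with LIN-35 fused to GFP and FLAG ahead of the *lin-35* 3′ UTR and an *unc-119(+)* copy. The *pie-1* promoter, which is active in the germline, drives the tagged protein, an added copy of LIN-35. The labels name the antibody lin-35 and the target eGFP-lin-35, so whether untagged LIN-35 was also precipitated cannot be told. The 2 libraries, biological replicates 2 and 3, make up 1 group, and the labels give no mutant, untagged or differently staged worms to set against them. DNA of whole worms was assayed, so tissue markers cannot be read, and germ cells cannot be told apart from the soma.

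In meiosis, HORMA-domain proteins such as HTP-3, HIM-3 and HTP-1 assemble on the cohesin-based axis of each chromosome. SYP proteins then join the axes of paired homologues as the central region of the synaptonemal complex, and the ZHP proteins act within it to limit and mark crossovers. PCH-2 is an AAA+ ATPase that remodels HORMA-domain proteins. LIN-35 is the worm retinoblastoma-like pocket protein of the DREAM complex, which contacts DNA through an E2F-DP pair and through LIN-54, a protein that binds the CHR element.

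A thresholded peak, one that passed the authors' irreproducible discovery rate threshold, lay near 2 of the 10 genes, *zhp-2* and *pch-2*. Over all protein-coding genes 2.53% had such a peak. The 396 thresholded peaks are the 396 regions with the highest signal among 30000 pooled candidates, so a rank of 396 or better in the pooled list marks a peak. A pooled candidate of any rank lay near 6 of the 10 genes, against 53.0% of all genes, so candidates of any rank were about as frequent at these genes as elsewhere. The deposited −log10 q-value of the best candidate was 3.22 at *zhp-2* and at *pch-2*, 2.61 at *zhp-1* and 1.72 at *htp-3*. At *syp-2* and *him-3* it was 0.331 and 0.283. The 2 genes with a peak encode a crossover RING protein and the HORMA remodeller, and the *zhp-2* summit lay nearer to the start of another gene, *lotr-1*. None of the axis or *syp* genes had a thresholded peak within 1000 bp, and a difference between these groups of genes was not tested.

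The sequence under these regions was read from the reference genome (RefSeq, WBcel235, which equals ce11) for E2F and CHR motifs, the DNA elements of DREAM. The pair of sites shown for *pch-2* lies under its peak, the *him-3* site lies under a weak candidate, and the *coh-4* and *rec-8* sites lie within 100 bp of the peak summits of meiotic cohesin genes, shown for comparison. The *rec-8* match lies past the end of its narrow region, which runs over chrIV:13353384-13353466. Each line gives 30 bases on the gene's own strand, 5′ to 3′. Capitals mark the match named at the start of the line, a CHR match (TTCGAA or TTTGAA on either strand) or a match to the 6-base core of the E2F motif. The *coh-4* CHR line also holds a core match, left in small letters, with its middle 24 bp from the summit.

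pch-2 E2F core, chrII:8158199-8158228, plus strand: actttgattttcGCGGGAcctgcgattatt

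pch-2 CHR, chrII:8158126-8158155, plus strand: cccgcccatataTTCAAAatggcacaaaac

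him-3 CHR, chrIV:6977376-6977405, plus strand: ctagttttttttTTCAAAtcaaaatatgtt

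coh-4 CHR, chrV:4175827-4175856, minus strand: gaaatttcgcggTTCGAAgctacgcggcac

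rec-8 CHR, chrIV:13353460-13353489, minus strand: cgagaaaacgtcTTTGAAgcagaaatgaaa

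The capitals of the *pch-2* core read TCCCGC on the other strand, and their middle lies 135 bp before the *pch-2* start. The *pch-2* CHR match lies 208 bp before the start. The *him-3* CHR match lies 117 bp before the *him-3* start, inside the short interval between *him-3* and *pgl-1*. The *coh-4* and *rec-8* matches lie 202 bp and 282 bp before their starts.

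PCH-2 keeps HORMA-domain proteins in exchange on meiotic chromosomes, and its gene (WBGene00008641, chrII:8158349-8159925, plus strand) had its peak centred 142 bp upstream of the start. The pooled region, chrII:8158059-8158354, ranked 334 with a signal of 33.2, close to the weakest thresholded signal of 29.96. Replicate 2 held the region at rank 1099 with its summit 65 bp upstream, and replicate 3 held it at rank 274 with its summit 139 bp upstream. Signal was 10.3 in replicate 2 and 20.1 in replicate 3, on scales that are not shared between lists. The lists also differ in length, with 20291 regions in replicate 2 and 30000 in replicate 3, so equal ranks are not equal depths in the lists. Both libraries therefore held a region at the same promoter, but only replicate 3 placed it within its own 396 highest. The replicate ranks differed 4.01-fold. Of the 315 nuclear thresholded peaks near coding starts with a region in both libraries, 36.5% differed at least as much. The summit was intergenic and *pch-2* was the nearest coding start. The other coding start within 1000 bp, that of *tmem-138*, was 884 bp away.

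ZHP-2 is a RING protein that pairs with ZHP-1 and acts along the synaptonemal complex. Its gene (WBGene00008387, chromosome I, minus strand, start at 8487062) had the strongest region of the 10 genes. The pooled region, chrI:8487316-8487611, ranked 157 with a signal of 52.4, above the median of 44.8 over thresholded peaks, and its summit lay 402 bp upstream of the start in intergenic DNA. Replicate 2 held it at rank 80 with a signal of 39.9 and a summit 363 bp upstream. Replicate 3 held it at rank 3514 with a signal of 10.3 and a summit 405 bp upstream. The libraries placed the summit within the same promoter but ranked it far apart, 43.9-fold. The median rank ratio over the 315 peaks was 2.50, with quartiles of 1.48 and 6.45, and 18 of the 315 (5.71%) had a ratio at least as large as that of *zhp-2*. The summit was nearer to the start of *lotr-1*, 154 bp away on the opposite strand, than to *zhp-2*. LOTR-1 is a LOTUS and Tudor domain protein of germ granules. The starts of *zhp-2* and *lotr-1* lie 556 bp apart, and which of them the peak belongs to cannot be told from the lists.

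The other crossover genes had no thresholded peak. For *zhp-1* (WBGene00018867, chromosome I, minus strand, start at 5367986), whose product pairs with ZHP-2, the best pooled region ranked 1012 with a signal of 19.9 and its summit lay 221 bp upstream. Replicate 3 held an overlapping region at rank 2581. Replicate 2 held none there, and its regions near *zhp-1* lay within the gene, at rank 4906 in a coding exon 837 bp downstream of the start and at rank 5055 in an intron 139 bp downstream. In the order of all 10591 genes with a pooled region, *zhp-2* stood at 191, *pch-2* at 434 and *zhp-1* at 1024. Of the starts within 1000 bp of the *zhp-1* summit, that of pseudogene WBGene00018862 lay 271 bp away.

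ZHP-3 and ZHP-4, which pair with each other and mark crossover sites, are encoded by the only genes of the 10 without a region in any of the 4 lists within 1000 bp. Over all genes, 25.8% had none. For *zhp-3* (WBGene00006976, chromosome I) the nearest pooled summit lay in an intron 1180 bp downstream of the start at rank 8306, and that of replicate 3 lay 1068 bp downstream at rank 9924. In replicate 2 the nearest summit was 5542 bp upstream. For *zhp-4* (WBGene00012678, chromosome V), whose start lies inside *pro-3*, the nearest summits were 2046 bp upstream in the pooled list and in replicate 3, at ranks 17298 and 4998, and 1421 bp upstream in replicate 2 at rank 12606. All of them fell in introns of *pro-3*. Within the 2000 bp around the *zhp-4* start, 16.1% of 30-base words occur elsewhere in the genome, the highest share among the 10 genes. How such reads were aligned was not stated in the texts used here, and their part in the absence of a region was not tested.

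**Figure D1:**
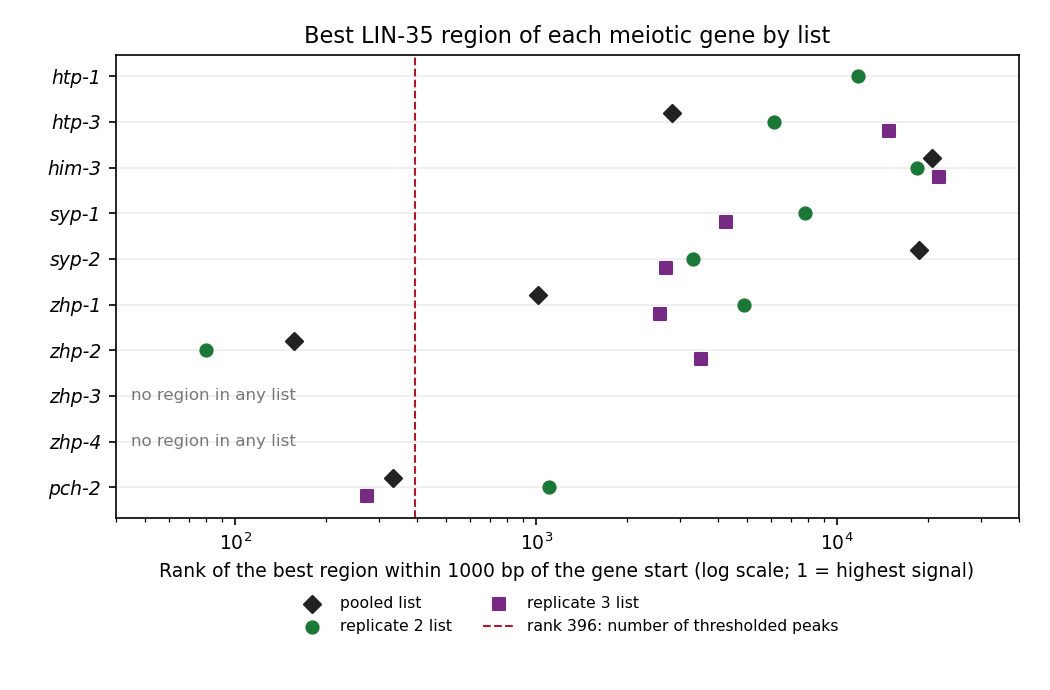
Rank of the best region within 1000 bp of each gene start (horizontal axis, log scale, 1 is the highest signal) for the 10 genes in the pooled list (diamonds), replicate 2 (circles) and replicate 3 (squares). The pooled diamonds of *zhp-2* (157) and *pch-2* (334) lie left of the dashed line at rank 396, with replicate 2 alone also left of it for *zhp-2* and replicate 3 alone for *pch-2*.

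None of the axis genes had a region among the 1000 highest of the pooled list, and their best pooled ranks ran from 2817 at *htp-3* to 20671 at *him-3*, with no pooled region at *htp-1*. HTP-3 is the HORMA-domain protein on which the other axis proteins are built, and its gene (WBGene00002034, chromosome I, plus strand, start at 4827072) had its best pooled region at rank 2817 with a signal of 15.1. That summit lay 670 bp downstream of the start, in a coding exon of *htp-3*. Replicate 2 held a region at rank 6175 with its summit 532 bp downstream. Replicate 3 held one at rank 14814, 678 bp downstream, and another at rank 17701, 173 bp upstream. All 3 lists thus had their best region inside the gene body, and replicate 3 also held a weaker one at the promoter.

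HIM-3, an axis protein needed for synapsis and for crossing over between homologues, is encoded by *him-3* (WBGene00001862, chrIV, plus strand, start at 6977508). Its best pooled region, chrIV:6977216-6977511, ranked 20671 with a signal of 7.83, near the weakest pooled signal of 6.36, and a summit 144 bp upstream. Replicate 3 held an overlapping region at rank 21748. Replicate 2 held none there, and its region at rank 18401 lay 949 bp upstream in a coding exon. The summit lay 46 bp from the start of *pgl-1*, which encodes a germ granule protein and is transcribed in the other direction, and the starts of *him-3* and *pgl-1* are 190 bp apart.

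HTP-1, which guards against synapsis between non-homologous chromosomes, had the fewest regions of the 3 axis genes. Its gene (WBGene00002032, chromosome IV, minus strand, start at 5391557) had 1 region, in replicate 2, at rank 11758 and 583 bp downstream of the start, in a coding exon. The nearest pooled summit was 2868 bp upstream at rank 18262. *htp-1* has a paralog, *htp-2*. Of the 1972 words of 30 bases around the *htp-1* start, 176 (8.93%) are not unique, and all 176 also occur around *htp-2*. Whether these shared words affected the regions listed at *htp-1* was not tested.

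SYP-1 and SYP-2 are coiled-coil proteins of the central region of the synaptonemal complex. For *syp-2* (WBGene00006376, chrV, plus strand, start at 5536487) the best pooled region, chrV:5536456-5536751, ranked 18662 with a signal of 8.22 and its summit lay 117 bp downstream, in the 5′ UTR. Replicate 2 held a region at rank 3321 with its summit 328 bp downstream in a coding exon, and replicate 3 one at rank 2692 with its summit 34 bp upstream. Either library alone ranked *syp-2* higher than the pooled list did, and the summits of the libraries lay on both sides of the start. The starts of *cox-16*, a mitochondrial assembly factor gene, and of C24G6.8 lay 361 bp and 730 bp from the pooled summit.

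For *syp-1* (WBGene00006375, chromosome V, plus strand, start at 16404274) the choice of start decides the result. The annotated gene start lies within F13A7.14, on the same strand, and had no pooled region within 1000 bp. Replicate 2 held a region at rank 7784, 359 bp upstream, and replicate 3 one at rank 4268, 649 bp upstream. The coding sequence of *syp-1* begins 1489 bp downstream of the annotated start. A pooled region with a rank of 900 and a signal of 20.6 had its summit 114 bp before that coding start, in the *syp-1* 5′ UTR. Replicate 3 held it at rank 522, and replicate 2 had a region at rank 2202 with its summit 290 bp before the coding start. In the other direction, a thresholded peak at rank 328 with a signal of 33.8 lay 2590 bp upstream of the *syp-1* start and 207 bp from the start of F13A7.14. It ranked 222 in replicate 2 and 1758 in replicate 3. For the other 7 genes without a peak within 1000 bp, the nearest thresholded summit was between 37018 bp (*htp-3*) and 120709 bp (*zhp-4*) away.

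**Figure D2:**
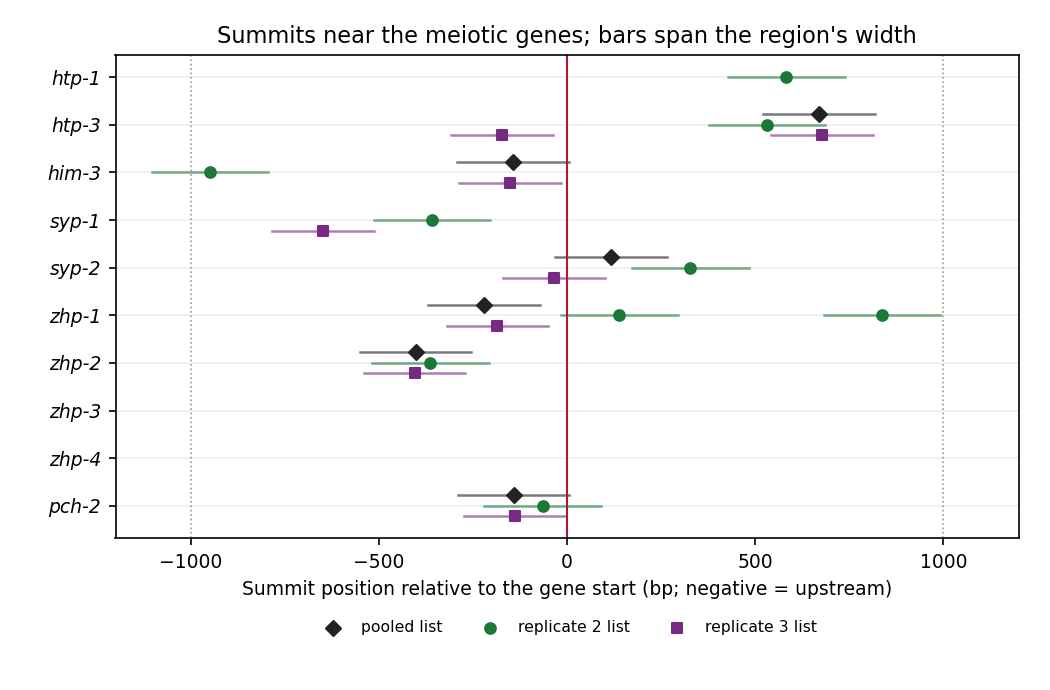
Position of each region's summit relative to the gene start (horizontal axis, bp, negative is upstream in the direction of the gene) for the 10 genes and the pooled (diamonds), replicate 2 (circles) and replicate 3 (squares) lists, with bars as long as the region. The summits of the 3 lists lie between 363 and 405 bp upstream for *zhp-2* and between 65 and 142 bp upstream for *pch-2*. Those of *htp-3*, *syp-2* and *zhp-1* lie on both sides of the start.

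Across the 10 genes, replicate 2 held a region near 8 of 10 (40.1% of all genes) and replicate 3 near 7 of 10 (53.0% of all genes). Regions in both libraries were near 7 of 10 genes, against 24.1% of all genes. The count of 7 asks only that each library has a region somewhere within 1000 bp: at 250 bp, 2 of the genes (*pch-2* and *zhp-1*) had one in both, with 4.82% over all genes. Among the best pooled regions, the 4 at *htp-3*, *syp-2*, *zhp-2* and *pch-2* were overlapped by a region in each library, and those at *him-3* and *zhp-1* by one in replicate 3 alone. Of the 10 genes, 1 (*zhp-2*) was within the 396 highest regions of replicate 2, against 2.28% of all genes, and 1 (*pch-2*) was within those of replicate 3, against 2.17%. Neither gene was within the 396 highest of both libraries.

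The 6 genes with a pooled region had a median best rank of 1914.5, with a range of 157 to 20671, against 11190 over the 10591 genes with one. In replicate 2 the median was 5540.5 over 8 genes, against 7724 over all 8005 genes with a region. In replicate 3 the median was 3514 over 7 genes, against 11941 over all 10585. At a looser limit, the 1000 pooled regions with the highest signal, the count stayed at 2 of the 10 genes, against 5.09% of all genes. The next gene, *zhp-1*, lay just outside that limit.

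The summits were compared with the DREAM motifs over 100 bp on each side. The E2F motif (TTCCCGC or TTCGCGC or TTGCCGC or TTGGCGC on either strand) was in none of the 6 windows of genes with a pooled region, against 10.4% of windows over all genes and 53.7% over 337 thresholded peaks near coding starts. Its 6-base core (the last 6 letters of each form, contained in the full motif) was in 1 of 6, that of *pch-2*, where the match lay 7 bp from the summit. The core was in 19.5% of windows over all genes and in 72.4% of thresholded peaks. The CHR motif was in 3 of 6 windows (*him-3*, *zhp-2* and *pch-2*), against 54.3% over all genes and 74.8% over thresholded peaks. In the *zhp-2* window, 2 CHR matches lay 95 bp left and 45 bp right of the summit along the chromosome. No match says only that these letters are not in the window.

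The word TTCGCGG, which overlaps the core in *pch-2* and appears in the *coh-4* line, was searched for only after those sequences had been seen. It lay 4 bp from the summit in *pch-2* and 8 bp from it in *zhp-2*, and in none of the other 4 windows of the 10 genes. Over all genes 1.97% of windows held it, and 28 of the 337 thresholded peaks (8.31%) did. The *pch-2* match was known before the search, so of these 2 only the *zhp-2* match was found by it. Neither window holds a full E2F motif.

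In the promoters themselves, from 250 bp before to 50 bp after the start, 0 of 10 genes held the E2F motif, against 9.16% of all genes, and 9 of 10 held a CHR match, against 68.6%. The exception for CHR was *htp-3*. GC content in the 6 summit windows had a median of 35.1% and ran from 28.9% at *zhp-1* to 42.3% at *zhp-2*, against a median of 36.3% over all genes. Coding starts on both strands within 500 bp of the summit were found in 3 of the 6 windows (*him-3*, *syp-2* and *zhp-2*), against 9.57% over all genes with a pooled region. The summit lay upstream of the start in 4 of the 6 and downstream in *htp-3* and *syp-2*. By position, 4 of the 10 genes lie on chromosome I, 1 on II, 2 on IV, 3 on V and 0 on X.

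**Figure D3:**
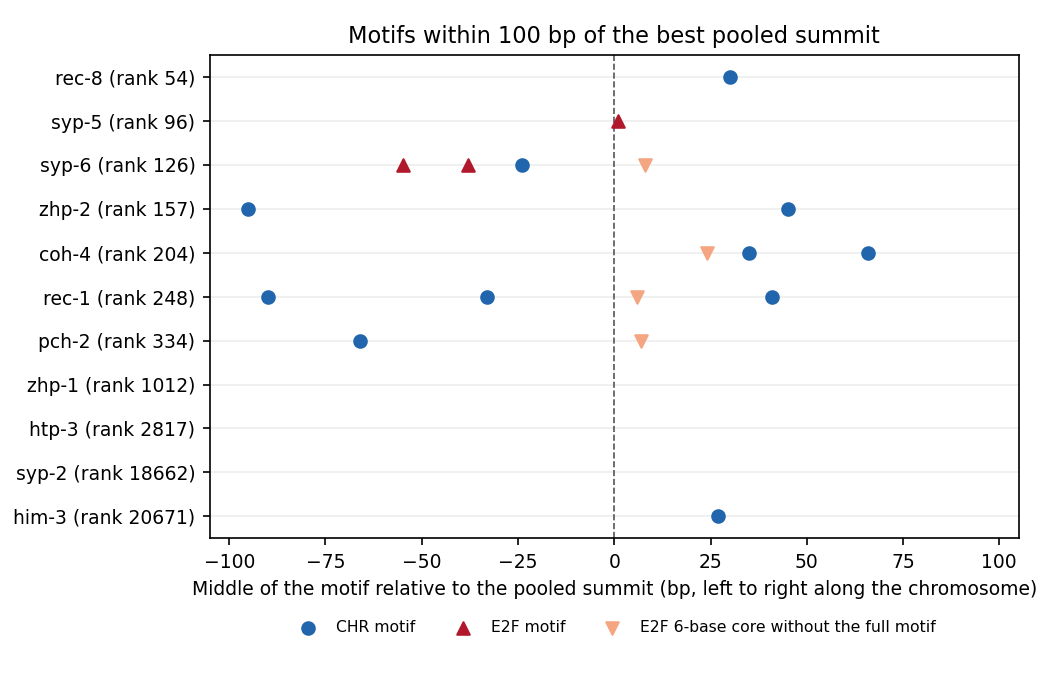
Middle of each CHR match (circles), E2F match (upward triangles) and E2F 6-base core match outside a full E2F match (downward triangles) relative to the summit of the best pooled region (horizontal axis, bp along the chromosome), for the 6 genes with a pooled region and 5 other meiosis genes with a thresholded peak, ordered by pooled rank. Full E2F matches are seen for *syp-5* and *syp-6* and for none of the 6 genes, while *pch-2* holds a core match 7 bp from its summit.

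Other genes of meiosis were counted from a list of 59 names in 8 roles, of which 58 matched the annotation. This list, too, was chosen with earlier results of these data known. A thresholded peak lay near 5 of the 58 (2.53% of all genes), and a pooled region ranked 1000 or better near 12 of the 58 (5.09% of all genes). A pooled region of any rank lay near 47 of the 58, against 53.0% of all genes. The median best pooled rank was 3183 over these 47, against 11190 over all genes with a pooled region. The 5 genes were *rec-8* and *coh-4*, which encode meiotic kleisin subunits of cohesin, *syp-5* and *syp-6*, which encode paralogous proteins of the central region, and *rec-1*, a gene of crossover distribution and break formation. Among genes of the central region, *syp-1* and *syp-2* had no peak near the annotated start, nor had *syp-3* (best pooled rank 9206) or *syp-4* (2556), while *syp-5* and *syp-6* had one each. *syp-3* and *syp-4* are named after their values were seen, to complete the central region, and the difference between these genes was not tested.

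The meiotic kleisin *rec-8* had the highest rank of these 58 genes, 54, with a signal of 85.6 and a summit 252 bp upstream of its start. Its region ranked 64 in replicate 2 and 71 in replicate 3. The summit was also 278 bp from the start of *mex-5*, an oocyte and embryo RNA-binding protein gene. The region of *coh-4*, 167 bp upstream, ranked 204 in the pooled list with a signal of 44.2, 423 in replicate 2 and 249 in replicate 3, and lay 75 bp from the start of *pid-5*. Its paralog *coh-3* ranked 416, just outside the thresholded list, with 284 in replicate 2 and 782 in replicate 3.

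For *syp-5* the region ranked 96 with a signal of 66.7, 183 bp upstream of the start, and ranked 111 in replicate 2 and 138 in replicate 3. No other coding start lay within 1000 bp of that summit, and an E2F match lay 1 bp from it. For *syp-6* the region ranked 126 with a signal of 57.3, 100 bp upstream, and ranked 123 in replicate 2 and 135 in replicate 3, with 2 E2F matches. It is shared with *mei-2*, a katanin subunit gene of the meiotic spindle, whose start is 173 bp from the summit. The replicate ranks of *zhp-2* (80 and 3514) lay much farther apart than those of *syp-5* or *syp-6*. For *rec-1* the region ranked 248 with a signal of 39.5, 402 in replicate 2 and 183 in replicate 3, and its summit lay 32 bp upstream of *rec-1* and 47 bp from the start of *pif-1*, in the *pif-1* 5′ UTR.

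In the 2 windows of *zhp-2* and *pch-2*, the E2F motif was in 0, its core in 1 and the CHR motif in 2. In the 5 windows of these other genes with a peak, the E2F motif was in 2, its core in 4 and the CHR motif in 4. Over all 47 windows of the longer list the counts were 9 for E2F (10.4% over all genes), 15 for the core (19.5%) and 29 for CHR (54.3%). The word TTCGCGG was in 3 of the 47 windows, against 1.97% over all genes. It lay 2 bp from the summit in *coh-3*, 41 bp in *coh-4*, where it had been seen before the search, and 33 bp in *rec-1*.

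By role, the axis and cohesin genes outside the 10 had peaks near 2 of 7, against 2.53% of all genes. Their median best pooled rank was 446.5 over 6 genes, against 11190 over all genes with a pooled region. Synaptonemal complex genes had peaks near 2 of 6 with a median of 2556 over 5, and break formation genes near 1 of 9. Differences between roles were not tested, and few peaks are looked for at a share of 2.53% in groups of this size. Pairing and movement genes (11), break processing genes (9), crossover designation genes (5), crossover resolution genes (8) and HORMA checkpoint partners (3) had peaks near 0. The checkpoint partners, which are the PCH-2 cofactor CMT-1 and the spindle checkpoint pair MDF-1 and MDF-2, had 2 of 3 genes within the 1000 highest pooled regions, against 5.09% of all genes. Each of these 2 had a region in 1 library alone. The gene *mdf-2*, whose product is itself a HORMA-domain protein, ranked 443 with a signal of 27.9 and 760 in replicate 3, with no region in replicate 2. The gene *cmt-1*, which is not among the 3 next-ranked genes, ranked 648, with 285 in replicate 2 and no region in replicate 3. The third of the next-ranked genes, *lab-1*, which protects cohesion on the long arm, ranked 477, with 566 in replicate 2 and 733 in replicate 3.

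**Figure D4:**
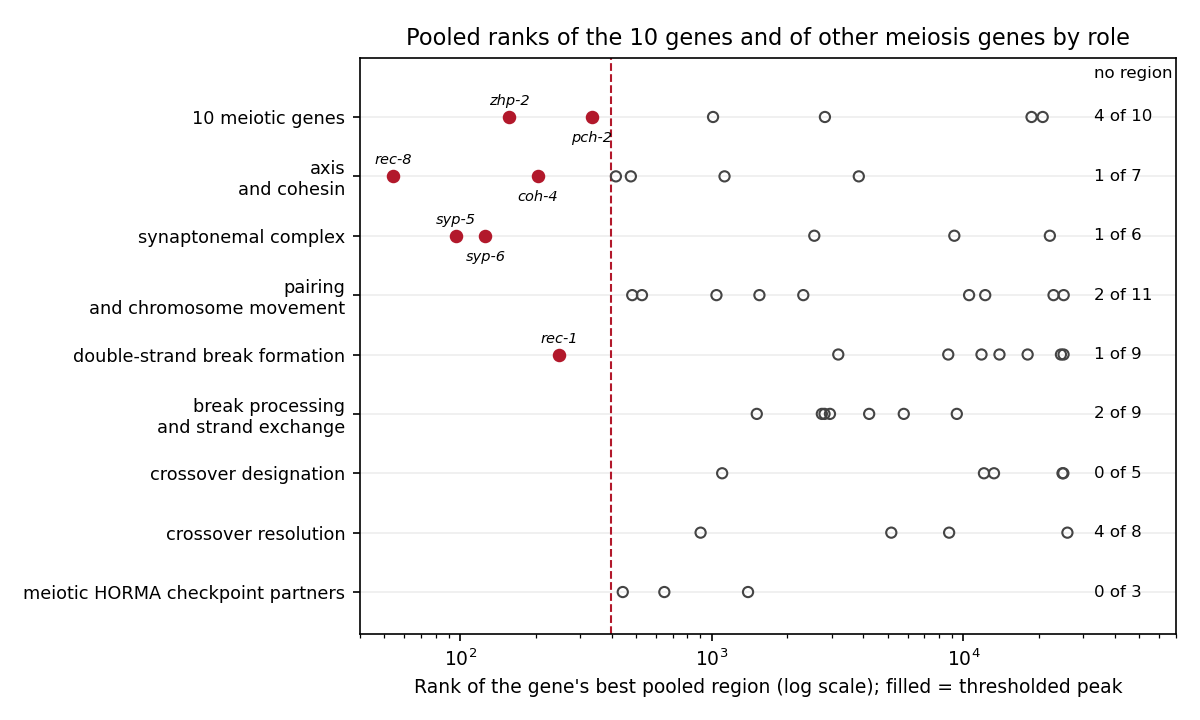
Rank of the best pooled region within 1000 bp of the gene start (horizontal axis, log scale) for the 10 genes (top row) and for 58 other meiosis genes by role, with filled points for genes with a thresholded peak and the dashed line at rank 396. The column at the right counts genes without a pooled region, 4 of the 10 in the top row, and filled points are found in the axis and cohesin, synaptonemal complex and break formation rows besides the 10 genes.

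Outside meiosis, the genes whose ranks lay nearest to those of *pch-2* over the 3 lists, among 4165 genes with a region in each, were the translation initiation factor gene *eif-3.B* (324 pooled, 964 in replicate 2 and 296 in replicate 3) and the importin gene *imb-1* (302, 1343 and 282), at distances of 0.0674 and 0.0982 in log10 rank. Those nearest to *zhp-2* were the dUTPase gene *dut-1* and K07A1.13, which share 1 region (260 pooled, 76 in replicate 2 and 4733 in replicate 3), at a distance of 0.255. These genes were picked by their ranks in all 3 lists, so their gap between the libraries is part of the choice.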

How the data were processed

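ChIP-seq regions of 2 libraries were analysed on ce11 (WBcel235). Per text files deposited alongside the lists, the authors called candidates per replicate and on pooled alignments, using a control, and derived the thresholded list from all 3. Aligner, peak caller and threshold: not given in the sources used here. Each list gives the authors' signal value, on a scale that is not given, a deposited −log10 q-value and a summit offset. All thresholded peaks carry the same −log10 q-value, 3.22, so regions were ranked by signal within each list. Read depth is unknown. Lists on ce10 were not used here.

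Gene starts came from Ensembl release 115. The best region of a gene was that with the highest signal within 1000 bp. Of the 59 other meiosis names, *smc-1* was not matched by name, so it is missing from the axis and cohesin counts. The gene *msh-4* is annotated as *him-14*. The members and lists were chosen with earlier results of these data known. Text names all 10 genes, other meiosis genes with a peak, the 3 next by pooled signal, genes that share a member's region or hold its start and the 2 genes nearest in rank to each member with a peak. Also named, outside this rule, were *htp-2*, *syp-3*, *syp-4*, *cmt-1*, *mdf-1* and genes that share a region with other meiosis genes. No test between conditions was possible. Distances were checked against bedtools, and both distances and motif search were tested on simulated data. Python 3.11.15, numpy 2.4.6, pandas 2.3.3, scipy 1.17.1 and matplotlib 3.10.9 were used.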

Additional observations from a re-analysis of the deposited data

How the results depend on the processing

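Over 7 results and 50 alternatives, 15 values moved by over 1.5 times (counts) or by more than the spread between the libraries (the median rank), and 35 did not. The count of the 10 genes with a peak (2) was 1 at 250 bp (*pch-2*, 1.40% of all genes). It was 1 with each peak given to its nearest gene only (*pch-2*, 1.71%) and 1 among the 198 peaks with the highest signal (*zhp-2*, 1.25%). Leaving out 1 library replaced the peaks by the 396 highest candidates of the other library, which are not thresholded peaks. Under that rule the count was 1 without replicate 2 (*pch-2*, 2.17% of all genes) and 1 without replicate 3 (*zhp-2*, 2.28%). The count of other meiosis genes with a peak (5) was 3 among those 198 peaks and 12 in the 1000 highest-ranked pooled regions (5.09% of all genes). Among the 396 highest candidates of 1 library it was 7 without replicate 2 and 8 without replicate 3. Genes with a region in both libraries (7) numbered 2 at 250 bp (4.82% of all genes) and 4 at 500 bp (11.4% of all genes). The median best rank (1914.5) was 3514 in the replicate 3 list and 5540.5 in the replicate 2 list, which differ in length (30000 and 20291 regions). It was 1012 at 500 bp, a move within the spread between the libraries. Genes with an E2F motif at the summit (0) numbered 1 with the 6-base core, and those with a CHR match (3) numbered 5 with TTTAAA added and 9 in the promoter window. The count of genes with a pooled region (6) moved by no alternative beyond 1.5 times. Starts of the coding sequence in place of gene starts were an alternative chosen after seeing the data. Under it, 7 genes had a pooled region (*syp-1* added, 53.0% of all genes). The counts with a peak stayed at 2 and 5 (2.52% of all genes).

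No paired analysis was possible because the libraries form 1 group. With 2 libraries the spread can be given only as both ranks. Depth is unknown, so a gene without a region was not detected under these lists and is not shown to lack LIN-35. The tagged protein comes from a transgene, and no untagged worms were analysed here. Shared promoters cannot be assigned to 1 gene.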
